A study of Bos taurus with 8 samples.

Results

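The nuclear-encoded subunits of the mitochondrial respiratory chain were followed in bovine granulosa cells given non-esterified fatty acids. Members were the probe sets whose only gene symbol starts with NDUFA, NDUFB, NDUFC, NDUFS, NDUFV, UQCR, ATP5 or COX4 to COX8, or is SDHA, SDHB, SDHC, SDHD, CYC1 or CYCS, without the NDUFAF assembly factors. Where a gene had more than 1 probe set, the brightest over the 8 arrays was used. This gave 79 genes on 80 probe sets, out of 18010 named genes on an array table of 24415 probe sets. By symbol, 35 belonged to complex I, 3 to complex II, 8 to complex III, 15 to complex IV and 17 to complex V, and 1 was cytochrome c (CYCS). A further 12 probe sets carried such a symbol beside other gene symbols and were left out. SDHC was among these, so complex II was described by SDHA, SDHB and SDHD.

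The cells were primary bovine granulosa cells, the somatic cells around the oocyte, on 4 arrays with a non-esterified fatty acid mix (NEFA) in the medium and on 4 arrays with bovine serum albumin (BSA) in it. Both groups grew without serum in alpha-MEM with FSH, IGF-1 and androstenedione, had their medium replaced on day 2 and day 4, and were analysed on day 6. The labels state neither the makeup and dose of the fatty acid mix nor whether replicates were separate animals, pools or dishes. The p-values therefore measure only the spread between these arrays, which may be technical.

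The respiratory chain sits in the inner mitochondrial membrane. Complex I takes electrons from NADH and complex II takes them from succinate, both pass them to ubiquinone, and complex III hands them by way of cytochrome c to complex IV, which reduces oxygen. The protons pumped on the way drive complex V, the ATP synthase. Fatty acid oxidation feeds NADH and reduced flavins into this chain, and granulosa cells also use mitochondria for the first step of steroid hormone synthesis. A minority of the subunits is encoded in mitochondrial DNA. Those subunits were not analysed here.

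Levels are log2 values after the authors' RMA normalization, and changes are NEFA minus BSA on that scale, given with limma's standard error (SE). The 8 arrays had medians from 4.78 to 4.86. Arrays of 1 group correlated across probe sets at 0.9935 to 0.9948, and arrays of different groups at 0.9914 to 0.9935. The mean over 12 of 12 granulosa markers was 8.41 to 8.60 on NEFA arrays and 8.38 to 8.65 on BSA arrays, and 6 had lower and 6 higher values. They ran from -0.745 for HSD17B1, an estrogen-forming enzyme that averaged 4.46 with NEFA and 5.21 with BSA, to 0.505 for the aromatase CYP19A1, which averaged 8.02 with NEFA and 7.52 with BSA, and none passed the threshold (limma, adjusted p = 0.12 and 0.167 for these). Of markers of other cells, the leukocyte marker PTPRC lay between 2.56 and 3.0 with NEFA and between 2.80 and 3.04 with BSA, all within the dimmest 33.3% of probe sets. The mean over 11 of 12 leukocyte markers was 3.27 to 3.48 on NEFA arrays and 3.20 to 3.31 on BSA arrays, and over 6 of 6 endothelial markers 3.77 to 3.84 on NEFA arrays and 3.75 to 3.93 on BSA arrays. The mean over 5 of 6 theca markers was 4.85 to 5.09 on NEFA arrays and 4.66 to 4.76 on BSA arrays. All 5 had higher values with NEFA, and the smallest adjusted p was 0.149 (limma). At an unadjusted p under 0.05 (limma), 4 were higher, where 7.9% of all genes were. GLI1 and PTCH1 did not overlap, and INSL3 was the brightest, at 7.98. For 6 of 7 smooth muscle and fibroblast markers the mean was 6.46 to 6.76 on NEFA arrays and 6.36 to 6.46 on BSA arrays, with the highest value on NEFA 4. Of these markers of other cells, PDGFRA (fibroblasts) and VWF (endothelium) fell with NEFA, by 0.30 and 0.35 on the log2 scale (limma, adjusted p = 0.0419 and 0.0392), and no other passed. Most genes of both lists went the other way. Of 6 smooth muscle and fibroblast markers 4 had higher and 2 lower values, as did the 6 endothelial markers. MYH11 (smooth muscle) was higher by 0.42 without overlap (limma, adjusted p = 0.0562). The part of other cells in the results below was not tested. In such bulk RNA, fewer cells of a type and less RNA per cell cannot be told apart.

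Most subunit genes had slightly lower values with NEFA, but none passed the threshold. Of the 79 genes, 61 had lower values, 17 had higher values and ATP5MC2 was equal in both groups. The median change was -0.06, a level 4.24% lower, against a median of 0.005 and 48.4% lower values over all genes. At an adjusted p under 0.05 (limma, Benjamini-Hochberg over all probe sets), 0 of 79 were lower and 0 were higher, while 1.35% of all genes were lower and 0.999% higher. The smallest adjusted p of a member was 0.0805, for NDUFA11. At an unadjusted p under 0.05 (limma), 15 members (19.0%) were lower and 1 was higher, where 8.92% of all genes were lower and 7.9% higher. The arrays of the 2 groups did not overlap for 13 members (16.5%), all lower with NEFA, where 7.2% of all genes were lower and 5.19% higher without overlap. The 12 probe sets left out for their several symbols had a smaller median change, -0.0225. Of these, 8 had lower values and 0 passed, and their changes ran from -0.1625 to 0.08.

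The call of 0 members depended on how the spread was estimated. With trend and robust eBayes, 8 members passed as lower (ATP5F1B, ATP5F1D, CYC1, NDUFA10, NDUFA11, NDUFS8, NDUFV1 and SDHA) and ATP5MG passed as higher, where 3.77% of all genes were lower and 2.32% higher. Without moderation, ATP5F1B, ATP5F1D and SDHA passed as lower, against 1.67% of all genes. With the dimmest 33.3% of probe sets left out, ATP5F1D and NDUFA11 passed as lower, against 3.64% of the genes kept.

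**Figure D1:**
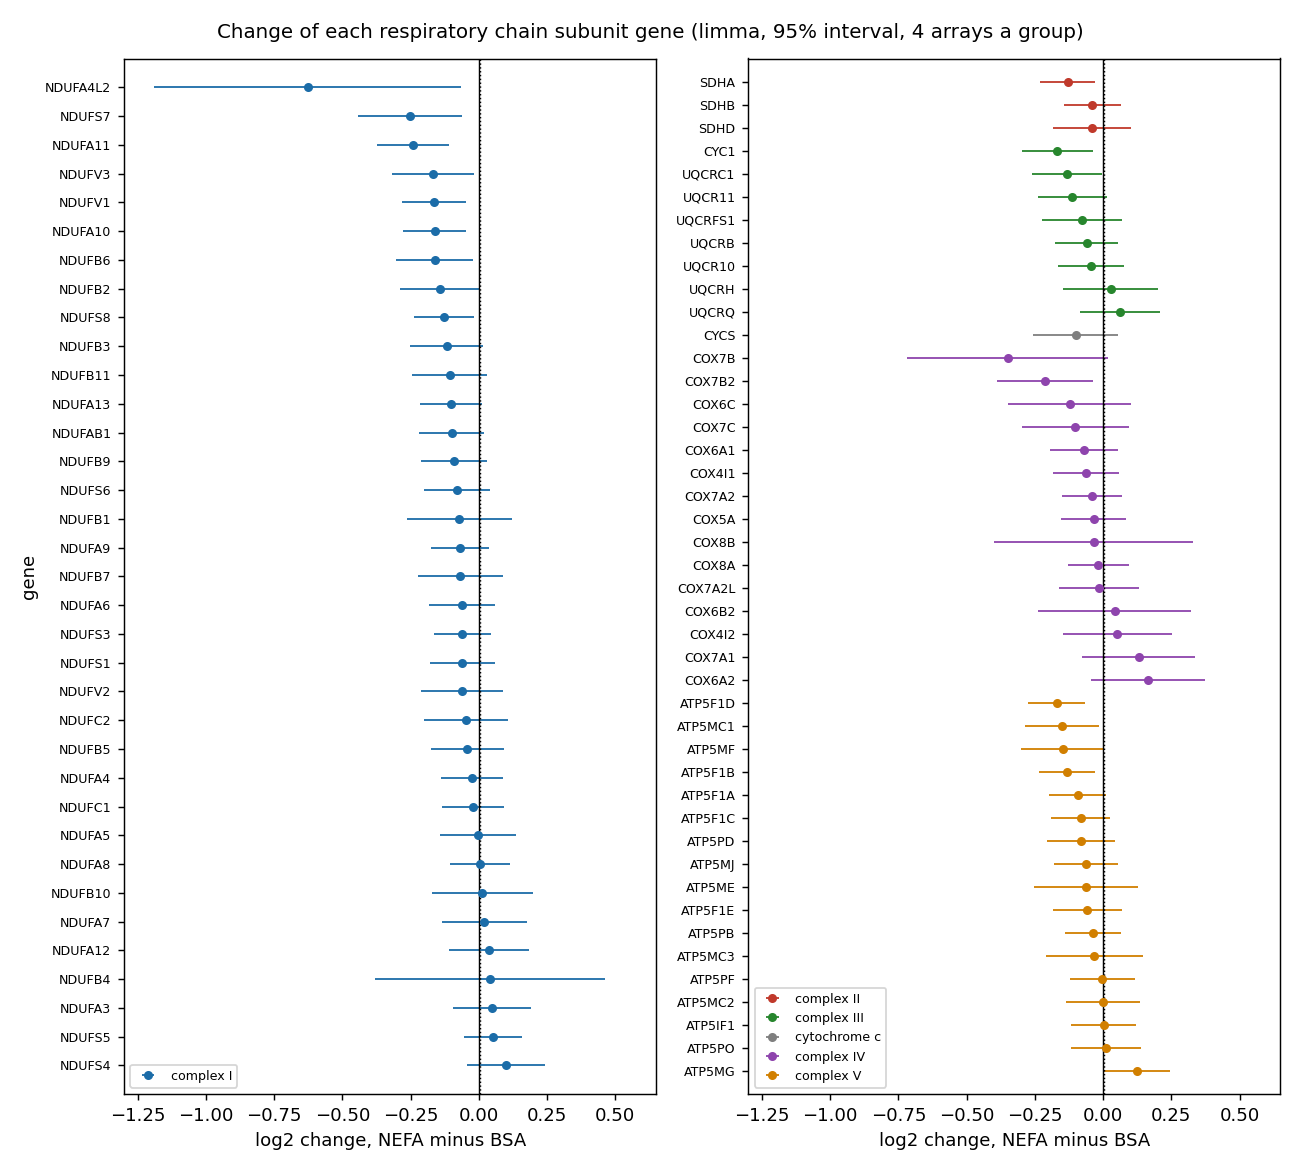
Change of each of the 79 subunit genes on the x axis (log2, NEFA minus BSA), with complex I on the left and complexes II to V and cytochrome c on the right. Points are limma changes, bars their 95% intervals with 4 arrays in each group, and the dotted line is the median of all genes, 0.005; 61 points lie below 0, and the lowest is NDUFA4L2 at -0.63.

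The changes were small and, for most members, well bounded. The 95% interval of the change lay within 0.5 log2 units of 0 for 77 of 79 members, all but NDUFA4L2 and COX7B, and for 15742 of all 18010 genes. The median SE was 0.058 for members and 0.083 for all genes. Members shared a bright signal: 59 of 79 (74.7%) had a mean level above 8, as had 15.2% of all genes. Bright genes at large were bounded alike. Of all 2729 genes above 8, 2648 had an interval within 0.5 log2 units of 0, and their median SE was 0.054.

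Over all genes together, bright ones had lower values with NEFA more often than higher ones. Among the 2729 genes above 8, a split chosen after seeing the data, 59.8% had lower values and the median change was -0.025. Of the 59 members above 8, 49 (83.1%) had lower values, with a median of -0.06. Among these members, 11 (18.6%) were lower without overlap of the groups, where 17.5% of all genes above 8 were. At an unadjusted p under 0.05 (limma), 11 (18.6%) were lower, where 15.2% of all genes above 8 were. The share of members whose groups did not overlap was thus near that of all genes above 8, while the share with lower values was larger and the median lay lower. The 2 sets share only that limit: the median level was 9.58 for the 59 members and 8.77 for the 2729 genes.

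**Figure D2:**
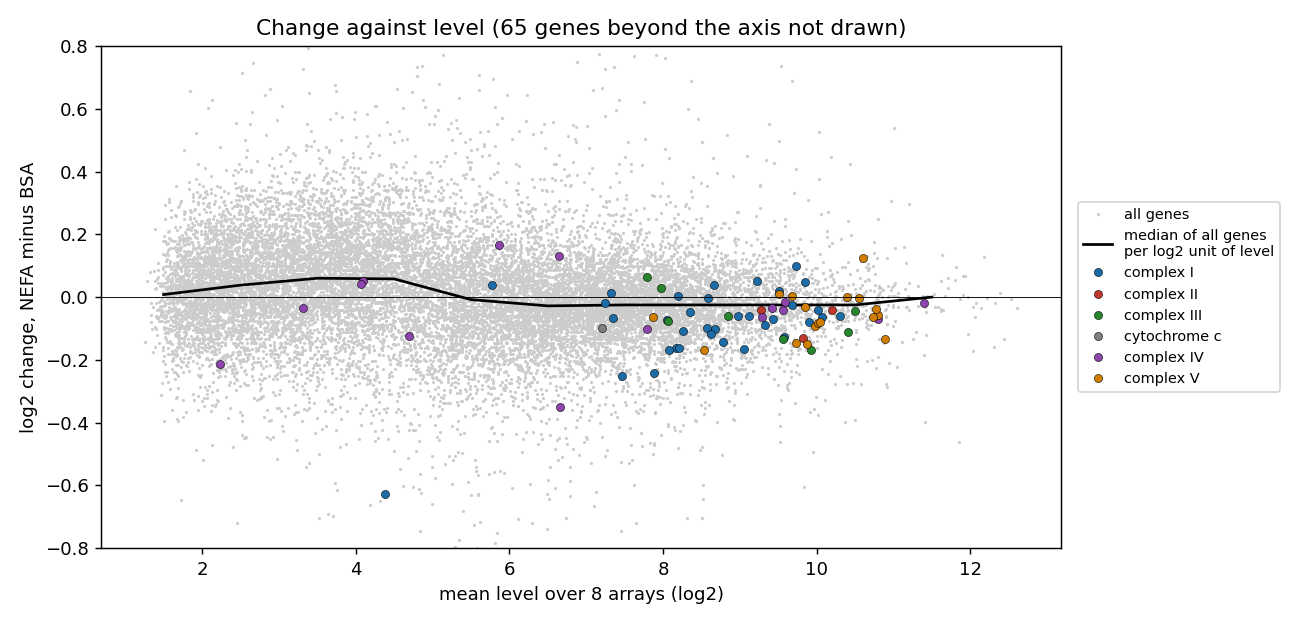
Change (log2, NEFA minus BSA) against mean level over 8 arrays (log2) for all 18010 genes in grey and the 79 subunit genes in colour by complex; 65 genes beyond 0.8 on either side are not drawn. The black line, the median of all genes in each log2 unit of level with at least 20 genes, is 0.06 between levels 3 and 4 and -0.025 from level 7 up to 11, and most coloured points lie under it.

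The complexes differed little from each other. The median change was -0.068 for complex I (27 of 35 lower), -0.04 for complex II (3 of 3 lower), -0.069 for complex III (6 of 8 lower), -0.035 for complex IV (11 of 15 lower) and -0.0625 for complex V (13 of 17 lower). Cytochrome c, a single gene, changed by -0.10. These medians lie closer to each other than the SE of a single member, and the differences between complexes were not tested, since genes are not replicates. The median of complex II was -0.072 without BSA 1 and -0.068 without BSA 4, and cytochrome c changed by -0.051 without BSA 3.

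The mean level of all 79 members was 8.68, 8.64, 8.64 and 8.60 on NEFA 1, 2, 3 and 4, against 8.69, 8.73, 8.73 and 8.68 on BSA 1, 2, 3 and 4. The NEFA arrays lay below the BSA arrays without overlap, by 0.068 in the mean, and NEFA 1 and BSA 4 were almost equal. This lack of overlap hung on single genes of wide spread. Without NDUFA4L2 (3.92 on NEFA 1, 4.30 on BSA 4), or without COX7B (6.39 and 7.01), NEFA 1 would lie above BSA 4. All genes above 8 averaged 8.982, 8.985, 8.979 and 8.97 on NEFA 1 to 4. On BSA 1 to 4 they averaged 8.987, 9.003, 9.011 and 9.001. These groups did not overlap either, with a difference of -0.021. NEFA 4 held the lowest of the 8 values for 34 of 79 members, counting ties, NEFA 1 for 2, and BSA 4 for 14. BSA 2 and BSA 3 each held the highest value for 23.

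For complex I the mean level was 8.59, 8.56, 8.54 and 8.47 on the NEFA arrays, against 8.62, 8.64, 8.64 and 8.60 on the BSA arrays, and the groups did not overlap. Without the dim NDUFA4L2 (3.92 on NEFA 1, 4.30 on BSA 4) they would overlap. Complex IV, whose members include dim isoforms, had 7.01, 7.0, 7.0 and 7.0 on the NEFA arrays, against 7.05, 7.06, 7.06 and 7.03 on the BSA arrays, again without overlap. Without COX7B (6.39 on NEFA 1, 7.01 on BSA 4) its groups would overlap. Complexes II, III and V differed by -0.07, -0.063 and -0.057. Complex II did not overlap, while NEFA 1 reached into the BSA range for complexes III and V. Without SDHA (9.78 on NEFA 2, 9.87 on BSA 1) complex II would overlap too.

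**Figure D3:**
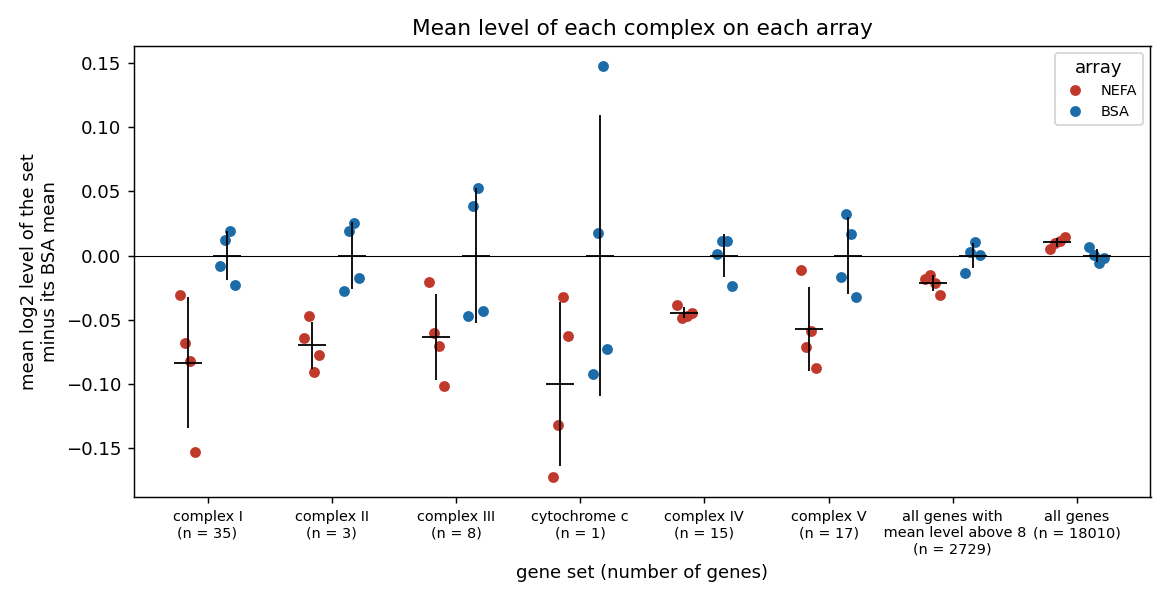
Mean log2 level of each complex on each array, with the mean of the BSA arrays set to 0 (y axis), NEFA in red left of BSA in blue; bars are mean ± SD (n = 4). All 6 member sets average below 0 with NEFA, by 0.045 (complex IV) to 0.100 (cytochrome c), all genes above level 8 by 0.021, and the mean of all genes is 0.010 above 0.

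Complex I has a catalytic core conserved from bacteria and a shell of accessory subunits. All 6 measured nuclear core subunits had lower values, with a median change of -0.094, and 3 of the 6 did not overlap between the groups, where 7.2% of all genes and 17.5% of those above 8 were lower without overlap. Among 27 accessory subunits 19 had lower values and 8 had higher ones, with a median of -0.068, and 3 did not overlap. NDUFV1, the core flavoprotein that oxidises NADH, was 9.01, 9.02, 8.96 and 8.88 on NEFA 1 to 4, and 9.16, 9.15, 9.12 and 9.10 on BSA 1 to 4. Each NEFA array lay below each BSA array, yet the change of -0.165 (SE 0.052) did not pass (limma, adjusted p = 0.163). NDUFS7 and NDUFS8, which carry the iron-sulfur clusters next to the ubiquinone site, changed by -0.25 (SE 0.084) and -0.13 (SE 0.048), also without overlap (limma, adjusted p = 0.183 and 0.238). The other core subunits NDUFS1, NDUFS3 and NDUFV2 each changed by -0.06.

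Among the accessory subunits, NDUFA11, of the membrane arm, was 7.86, 7.73, 7.73 and 7.72 with NEFA and 7.93, 7.99, 8.09 and 8.0 with BSA. Its change of -0.24 (SE 0.058; 95% interval -0.37 to -0.11) had the smallest p of all members, and NEFA 1 stood above the other NEFA arrays (limma, adjusted p = 0.0805). NDUFA10, another accessory subunit of the membrane arm, was 8.13, 8.05, 8.12 and 8.04 with NEFA and 8.24, 8.29, 8.27 and 8.19 with BSA, again without overlap. It changed by -0.16 (SE 0.050; limma, adjusted p = 0.157). NDUFB6 of the membrane arm changed by -0.16 without overlap, and NDUFV3 of the NADH-oxidising part by -0.17 with overlap (limma, adjusted p = 0.249 and 0.261). NDUFS4, an accessory subunit of the same part, had the highest change of complex I, at 0.10 (SE 0.063; limma, adjusted p = 0.483). All other accessory subunits lay between -0.14 (NDUFB2) and 0.05 (NDUFS5).

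NDUFA4L2 stood apart in size and spread. It is a paralogue of NDUFA4 that hypoxia induces in human and mouse cells, and NDUFA4 itself, though named for complex I, is a subunit of complex IV. NDUFA4L2 was 3.92, 4.66, 4.24 and 3.47 with NEFA and 4.90, 4.93, 4.67 and 4.30 with BSA. The groups overlapped, NEFA 4 was lowest and NEFA 2 lay within the BSA range. The change of -0.63 (SE 0.25; 95% interval -1.19 to -0.06), a 1.54-fold lower level, was the largest of any member and did not pass (limma, adjusted p = 0.262). Without NEFA 4 it was -0.43. NDUFA4 changed by -0.025.

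In complex II, which is also succinate dehydrogenase of the citric acid cycle, the catalytic flavoprotein SDHA was 9.74, 9.78, 9.73 and 9.77 with NEFA and 9.87, 9.90, 9.87 and 9.90 with BSA. The 2 groups were narrow and did not overlap, and the change of -0.13 (SE 0.044) did not pass (limma, adjusted p = 0.196). The iron-sulfur subunit SDHB was 10.21, 10.17, 10.16 and 10.15 with NEFA and 10.24, 10.17, 10.21 and 10.23 with BSA, with overlap. The membrane anchor SDHD was 9.25, 9.30, 9.23 and 9.24 with NEFA and 9.20, 9.38, 9.39 and 9.21 with BSA, where the BSA arrays fell into a high and a low pair that enclosed all NEFA arrays. SDHB and SDHD each changed by -0.04, and SDHD by -0.0083 without BSA 3. The left-out probe set that lists SDHC beside another locus changed by -0.155 (SE 0.069; limma, adjusted p = 0.325).

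In complex III, CYC1 (the cytochrome c1 subunit, which passes electrons on) was 9.87, 9.92, 9.80 and 9.78 with NEFA and 10, 10.08, 10.03 and 9.93 with BSA. The highest NEFA array fell just short of the lowest BSA array, and the change was -0.17 (SE 0.057; limma, adjusted p = 0.194). UQCRC1, a core protein on the matrix side, was 9.53, 9.52, 9.52 and 9.42 with NEFA and 9.58, 9.71, 9.67 and 9.56 with BSA, without overlap and with a change of -0.13 (SE 0.056; limma, adjusted p = 0.301). The small subunit UQCR11 changed by -0.11 with overlap (limma, adjusted p = 0.372). UQCRFS1, the Rieske iron-sulfur protein, changed by -0.08, UQCRB and UQCR10 by -0.06 and -0.045, and UQCRH and UQCRQ had the only higher values of this complex, at 0.03 and 0.06. The mobile carrier CYCS was 7.08, 7.12, 7.22 and 7.19 with NEFA and 7.16, 7.27, 7.40 and 7.18 with BSA. Its groups overlapped (limma, adjusted p = 0.522).

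**Figure D4:**
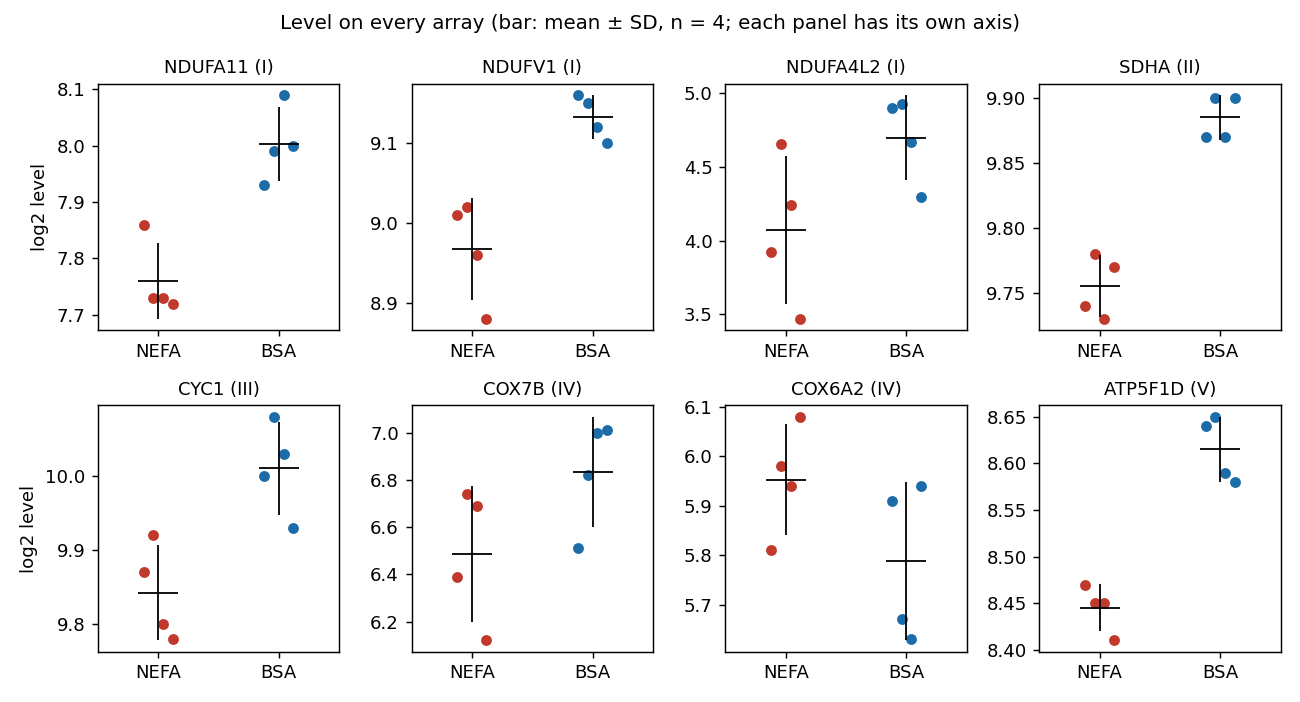
Log2 level of 8 subunit genes on every array, NEFA left of BSA, with mean ± SD (n = 4) as bars and a separate y axis for each panel; the complex stands in brackets. The groups do not overlap for NDUFA11, NDUFV1, SDHA, CYC1 and ATP5F1D, and they overlap for NDUFA4L2, COX7B and COX6A2.

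Complex IV showed no member without overlap. Its 8 ubiquitous subunits all had lower values with NEFA, from -0.0175 for COX8A to -0.35 for COX7B, with a median of -0.066. One of them, COX6C, had a mean level of only 4.70 and changed by -0.12 (SE 0.099). Left-out probe sets that list COX5B and COX6B1 beside another locus changed by -0.115 and -0.0725. COX7B, a small subunit, was 6.39, 6.74, 6.69 and 6.12 with NEFA and 6.51, 6.82, 7.0 and 7.01 with BSA, and BSA 1 lay within the NEFA range. Its change of -0.35 (SE 0.16) did not pass (limma, adjusted p = 0.338) and was -0.23 without NEFA 4. On 2 brighter probe sets that list COX7B beside several other loci, and that were left out, the changes were 0.005 and -0.02. COX4I1 and COX5A changed by -0.0625 and -0.035, and COX7A2L, which helps to join complexes III and IV, by -0.015.

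The tissue-restricted isoforms of complex IV had values in both directions. Of 6 measured, 4 had higher and 2 lower values, with a median change of 0.05. COX6A2, the heart and muscle form, was 5.81, 5.98, 5.94 and 6.08 with NEFA and 5.91, 5.67, 5.63 and 5.94 with BSA. The groups overlapped at a change of 0.165 (SE 0.092; limma, adjusted p = 0.429). COX7A1, another heart and muscle form, was 6.68, 6.74, 6.82 and 6.58 with NEFA and 6.69, 6.74, 6.46 and 6.41 with BSA, a change of 0.13 that was 0.075 without BSA 4. The smooth muscle and fibroblast markers, whose means are given above, were highest on NEFA 4, as was COX6A2. COX7A1 was highest on NEFA 3 and had its lowest NEFA value on NEFA 4. The part of these markers in the values of both isoforms was not tested.

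The other isoforms were dim. COX4I2, the lung form, was 4.03, 4.04, 4.05 and 4.35 with NEFA and 4.21, 4.04, 4.02 and 3.99 with BSA. NEFA 4 stood above all other arrays, and the change of 0.05 was -0.025 without it. COX7B2, a testis form, was 2.08, 2.25, 2.01 and 2.17 with NEFA and 2.19, 2.39, 2.45 and 2.33 with BSA, a change of -0.21 (SE 0.077) at a level within the dimmest 33.3% of probe sets (limma, adjusted p = 0.222). COX6B2, also a testis form, and COX8B changed by 0.04 and -0.035 with overlapping groups. COX6B2 lay between 3.81 and 4.34 with NEFA and between 3.85 and 4.15 with BSA, and COX8B between 3.16 and 3.53 with NEFA and between 2.88 and 3.64 with BSA. Their directions turned when single arrays were left out.

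In complex V, both measured subunits of the catalytic head and all 3 of the central stalk had lower values, with medians of -0.11 and -0.08. ATP5F1D, a central stalk subunit, was 8.47, 8.45, 8.45 and 8.41 with NEFA and 8.64, 8.65, 8.59 and 8.58 with BSA. The groups did not overlap, with a change of -0.17 (SE 0.046; limma, adjusted p = 0.115). ATP5F1B, the catalytic subunit, was 10.83, 10.85, 10.83 and 10.79 with NEFA and 10.93, 10.98, 10.97 and 10.95 with BSA, without overlap and with a change of -0.13 (SE 0.045; limma, adjusted p = 0.193). ATP5F1A, its partner in the head, changed by -0.09, also without overlap (limma, adjusted p = 0.372). ATP5F1C and ATP5F1E of the central stalk changed by -0.08 and -0.06, and a second, dimmer probe set of ATP5F1E by 0.275 (limma, adjusted p = 0.363).

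The other parts of complex V had medians of -0.02 for the peripheral stalk, -0.03 for the c ring and -0.06 for the small membrane subunits. The 4 peripheral stalk subunits ran from -0.08 for ATP5PD to 0.01 for ATP5PO. The c ring, the rotor in the membrane, is built from identical subunits that 3 genes encode. ATP5MC1 was 9.85, 9.83, 9.81 and 9.69 with NEFA and 9.90, 9.97, 10.03 and 9.88 with BSA, without overlap, and changed by -0.15 (SE 0.060; limma, adjusted p = 0.266). ATP5MC3 and ATP5MC2, which encode the same mature subunit, changed by -0.03 and 0.00. ATP5MG, a small membrane subunit, was 10.71, 10.69, 10.60 and 10.64 with NEFA and 10.51, 10.62, 10.50 and 10.51 with BSA. It was the 1 member higher at an unadjusted p under 0.05 (0.0442, limma; adjusted p = 0.299), by 0.125 (SE 0.053), with overlap through BSA 2. The other small membrane subunits ATP5MF, ATP5ME and ATP5MJ changed by -0.15, -0.06 and -0.06. The inhibitor ATP5IF1, which blocks the enzyme from splitting ATP, changed by 0.0025.

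None of the listed genes that build or feed the chain passed the threshold. Of 49 measured assembly factors, 35 had lower and 14 higher values, with a median change of -0.045 and 0 past the threshold, while 7 (14.3%) were lower and 0 higher at an unadjusted p under 0.05 (limma), where 8.92% of all genes were lower and 7.9% higher. The groups did not overlap for 4 lower ones (8.16%), where 7.2% of all genes were lower without overlap. COX11, which delivers copper to complex IV, was 7.02, 6.97, 6.90 and 6.89 with NEFA and 7.14, 7.31, 7.19 and 7.35 with BSA. Its change was -0.30 (SE 0.065), without overlap (limma, adjusted p = 0.0564). It passed with the dimmest probe sets left out and with trend and robust eBayes (limma, adjusted p = 0.025 and 0.00733), and adjusted p reached 0.142 at most in the other alternatives apart from the replicate block, where it was 0.173.

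Of 75 mitochondrial ribosome proteins, which serve the subunits encoded in mitochondrial DNA, 56 had lower and 18 higher values, with a median change of -0.04. None passed, and 11 (14.7%) were lower and 0 higher at an unadjusted p under 0.05 (limma), where 8.92% of all genes were lower. The groups did not overlap for 12 lower ones (16%), where 7.2% of all genes were lower without overlap. MRPL14 had the smallest p of these, with a change of -0.255 (SE 0.060; limma, adjusted p = 0.0761), and passed in the same 2 alternatives as COX11 (limma, adjusted p = 0.0332 and 0.00344). The means of the 49 assembly factors and of the 75 ribosome proteins differed by -0.047 and -0.053, both without overlap of the arrays.

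Regulators of mitochondrial biogenesis had small differences. Their mean was 5.998 to 6.009 on NEFA arrays and 6.013 to 6.037 on BSA arrays, a difference of -0.021, also without overlap. Of 24, 14 had lower and 10 higher values, with a median change of -0.018, 0 past the threshold, and 0 lower and 1 higher at an unadjusted p under 0.05 (limma), where 8.92% of all genes were lower and 7.9% higher. TFAM, which drives transcription of mitochondrial DNA, averaged 7.84 ± 0.07 with NEFA and 7.83 ± 0.08 with BSA (SD, n = 4). NRF1, a transcription factor of many subunit genes, averaged 5.29 ± 0.12 with NEFA and 5.45 ± 0.08 with BSA (limma, adjusted p = 0.357). The coactivator PPARGC1A and the receptor ESRRG were dim, at 2.70 with NEFA and 2.60 with BSA for PPARGC1A, and 2.21 with NEFA and 1.97 with BSA for ESRRG, whose change of 0.25 had the smallest p of these regulators (limma, adjusted p = 0.167).

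Of 18 genes for other electron donors to ubiquinone, nucleotide and phosphate carriers and proton leak, 12 had lower and 6 higher values, with a median change of -0.04. None passed, and 2 (11.1%) were lower and 3 higher at an unadjusted p under 0.05 (limma), where 8.92% of all genes were lower and 7.9% higher. DHODH, of pyrimidine synthesis, changed by -0.20 (SE 0.056) and SQOR, which oxidises sulfide, by -0.18 (SE 0.053), both without overlap (limma, adjusted p = 0.124 and 0.136). ETFB, of the flavoprotein that brings electrons from fatty acid oxidation, had higher values without overlap, at 8.46, 8.59, 8.60 and 8.43 with NEFA and 8.40, 8.40, 8.36 and 8.36 with BSA (limma, adjusted p = 0.278). Its partner ETFA changed by -0.095 and ETFDH by 0.04. The uncoupling protein UCP2 was 5.50, 5.66, 5.61 and 5.59 with NEFA and 5.52, 5.46, 5.48 and 5.33 with BSA, a change of 0.14 (SE 0.062; limma, adjusted p = 0.308). UCP3 was dim and changed by -0.09 (limma, adjusted p = 0.789).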

How the data were processed

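Log2 expression values of 8 arrays, 1 per sample, were used as the authors deposited them. They were made with RMA, per the submitters' processing notes, a method that subtracts background, gives all arrays like distributions and merges each probe set into a single value. A shift common to all transcripts can then not be seen, and changes of dim probe sets are understated. No label names the software version, probe annotation or genome build, so no positions are printed. The number of arrays limits the precision.

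Of 24415 probe sets, 18457 had 1 gene symbol in the platform annotation, 688 several and 5270 none. The groups were compared over all probe sets with limma 3.58.1 in R 4.3.3 (lmFit, eBayes), with Benjamini-Hochberg adjustment over the whole table and a threshold of 0.05. The fit was tested on simulated data, with changes put into probe sets drawn from all levels. It recovered 7 of 50 changes of 0.25 log2 units, 20 of 50 of 0.5, 37 of 50 of 1 and 48 of 50 of 2. Of its 118 calls, 6 were false. Changes as small as those of most members would thus often be missed at this threshold. Lists were described by counts and medians, with no test. Named in detail were the 3 members of smallest p and the 1 of largest change in complexes I, III, IV and V, complex II, CYCS and the tissue-restricted isoforms. From each list of other mitochondrial genes came the gene of smallest p, besides UCP2, UCP3, PPARGC1A, TFAM and NRF1. Other genes were named after their values were seen. The members and lists were chosen with earlier results of these data known.

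Alternatives changed 1 choice at a time: a block for the replicate number, quantile normalization once more, arrays centred on their medians, the dimmest 33.3% of probe sets left out, trend and robust eBayes, no moderation, array weights, probe sets averaged per gene, symbols updated through RefSeq, and each array left out. Deviations of same-numbered arrays of the 2 groups correlated only weakly (-0.014, 0.047, 0.041 and 0.073). Those of arrays with unlike numbers correlated at -0.097 to 0.056. The numbers were not taken as pairs in the main fit, and values this small cannot settle whether a pairing exists.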

Additional observations from a re-analysis of the deposited data

Results flagged for a closer look

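In 10 of the 158 groups of 4 arrays formed by the 79 subunit genes, 1 array stood far from the other 3 for the range of its group, and chance gives about 1 in 20 such groups. NEFA 4 was low for NDUFB10 (7.16), NDUFB3 (8.48) and UQCRC1 (9.42), and high for COX4I2 (4.35). NEFA 1 was high for ATP5PD (10.08), NDUFA11 (7.86) and NDUFC2 (8.47). Among the BSA arrays, BSA 2 was high for ATP5MG (10.62), BSA 3 low for NDUFV3 (8.01) and BSA 4 low for NDUFB10 (7.14).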

How the results depend on the processing

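The median change of the 79 members was below 0 in all 16 alternatives, and the lower values numbered 58 to 68. Centring each array on its median moved the median to -0.098 for all members, -0.075 for complex II, -0.07 for complex IV and -0.098 for complex V, since the array medians were 0.035 higher with NEFA. With arrays left out in turn the medians ran from -0.072 to -0.035 for complex II and from -0.048 to -0.029 for complex IV. The count of members past the threshold was 2 lower with the dimmest 33.3% left out, 3 lower without moderation, and 8 lower and 1 higher with trend and robust eBayes, and 0 in the other alternatives, with the replicate block and each array left out among them.

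Over the whole table, 217 probe sets were higher and 278 lower. These counts were 371 and 534 without the dimmest 33.3%, 492 and 776 with trend and robust eBayes, 52 and 37 with the replicate block, 86 to 153 and 97 to 160 with arrays left out in turn, and 155 and 347 with array centring. Directions turned for 5 of 37 named genes, none of which passed. COX4I2 changed by -0.0075 and COX6B2 by -0.02 with a further quantile normalization, and TFAM by -0.0225 with array centring. With arrays left out in turn, the ranges were -0.025 to 0.10 for COX4I2, -0.04 to 0.14 for COX6B2, -0.19 to 0.066 for COX8B, -0.0142 to 0.0425 for TFAM and -0.17 to 0.0125 for UCP3. The cause was not tested. Updated symbols gave the same 79 genes.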
